A study of Mus musculus with 6 samples.

Results

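The Rab genes of proximal tubules dissected from Clcn5 knockout and wild type mouse kidneys were compared on 6 Affymetrix Mouse430_2 arrays. Members were all genes whose only symbol in the platform annotation is Rab followed by a digit, and 72 of the 18193 genes with a symbol on the array met this rule. Of these, 59 encode Rab GTPases and 13 are named after a Rab without being GTPases (effectors, regulators and antisense transcripts). Each gene was read from its probe set with the highest mean log2 signal over all arrays, and 56 members, 45 GTPases and 11 others, were bright enough to be tested. There were 3 arrays of knockout and 3 of wild type tubules. Kidneys were perfused with an ice-cold salt solution under halothane, and 80 to 100 tubule pieces of 2 mm were dissected per kidney. Each array holds RNA pooled over mice, 3 to 4 per pool by the labels and 7 by the array records, a difference that could not be settled. Arrays within a group are described as biological replicates, and p-values here measure the spread between such RNA pools. Strain, age, sex, the allele and the part of Clcn5 that was disrupted are not given in the sources used here, and no treatment is named for either group.

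Rab proteins are small GTPases that mark the membranes of the cell. They are switched on by guanine nucleotide exchange factors (GEFs), switched off by GTPase-activating proteins (GAPs), carry prenyl groups that hold them in the membrane, and recruit effectors that tether, move or fuse vesicles. In the proximal tubule, filtered proteins bound by megalin and cubilin enter early endosomes marked by Rab5, the receptors return to the brush border through compartments marked by Rab4 and Rab11, and the cargo passes through late endosomes marked by Rab7 to lysosomes. ClC-5, the product of Clcn5, is a chloride/proton exchanger of these early and recycling endosomes.

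Signals are on a linear scale without unit, with a trimmed mean near 150.0 (2% left out at each end) that every array shares. Clcn5 itself read 352, 322 and 269 in knockout and 1013, 709 and 1029 in wild type, with no overlap (log2 change −1.53, limma adjusted p = 9.32e-05). This brightest Clcn5 probe set is of the x_at class, whose probes can match other transcripts, and the other 3 above the filter were at −2.87, −2.10 and −1.50. Array medians were 40.9 to 45.3, except 48.8 on knockout array 3, the only array with another solution lot in its record. Knockout arrays 1 and 2 and wild type arrays 1 and 3 were processed on fluidics station 1, the others on station 2. Proximal tubule S1 and S2 markers such as Slc34a1, Slc5a2 and Lrp2 were bright on every array, and the signal summed over 10 of them was 34409 to 38814 in wild type and 34218 to 36576 in knockout. At a limma adjusted p under 0.05, 1 of these 10 markers was called lower in knockout, and 2 of 7 S3 markers higher. Among all tested genes 3.24% were called in each direction. Markers of other cells moved with the groups. At this threshold 4 of 11 leukocyte, 2 of 6 podocyte and 3 of 6 intercalated cell markers were called higher in knockout. So were 3 of 5 distal tubule and 2 of 7 thick ascending limb markers, and 2 of 7 principal cell markers were called lower. Fitted changes were above 0 in all 11 leukocyte, all 6 podocyte and all 6 intercalated cell markers. They were above 0 in 4 of the 5 distal tubule, 6 of the 7 thick ascending limb and 2 of the 7 principal cell markers. None of 7 endothelial and 5 fibroblast or smooth muscle markers was called. The endothelial markers were 3 above 0 and 4 below, and their sums overlapped between the groups. All 5 fibroblast or smooth muscle markers were above 0. Their sums were 924 to 1022 in wild type and 1086 to 1133 in knockout. The leukocyte markers summed to 3225 to 3330 in wild type and 4659.9 to 4938 in knockout. Some markers of later nephron segments were as bright as proximal ones, while others, such as Cldn16 at 74.1, were dim. Umod and Calb1 averaged 3875 and 3917 in wild type, beside 3590 for Slc5a2 and 4176 for Lrp2. The thick ascending limb markers summed to 12194 to 12719 in wild type and 14352.5 to 15849 in knockout. The Rab signals below thus come from RNA of mixed segments. Of 14 early response genes 10 were called higher in knockout. No marker was listed at 0. In such bulk RNA, fewer cells of a type and less RNA per cell cannot be told apart, and the part of these shifts in the values below was not tested.

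The comparison asked whether the transcripts of the Rab machinery differ when the endosomal exchanger is missing. No tested Rab gene passed the threshold. Of 56 members, 0 rose and 0 fell at a limma adjusted p under 0.05, where 6.48% of all 11620 tested genes were called, 3.24% in each direction. At an unadjusted p under 0.05 there were 4 members, Rab6b, Rab4b, Rab1b and Rab3gap1, against 19.4% of all genes. The 3 knockout and 3 wild type arrays did not overlap in 9 members, 5 higher and 4 lower in knockout, against 25.2% of all genes. The median log2 change was 0.02 over the members and 0.01 over all tested genes, and the median size of a change was 0.10 against 0.13. A fitted change of 1.2-fold or more either way was seen in 5 of the 56, against 21.7% of all genes. The members ranged from −0.58 for Rab6b to 0.27 for Rab4b.

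Most members had narrow intervals. The 95% interval of the log2 change lay inside a 1.5-fold change either way (0.58 on the log2 scale) in 48 of the 56 members, against 72.6% of all tested genes. It lay inside a 1.2-fold change (0.26) in 21 of them, against 20.0%. These intervals are not adjusted for the number of genes. The widest were those of Rab11fip1 and Rab5b, whose arrays scattered most within the groups.

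**Figure D1:**
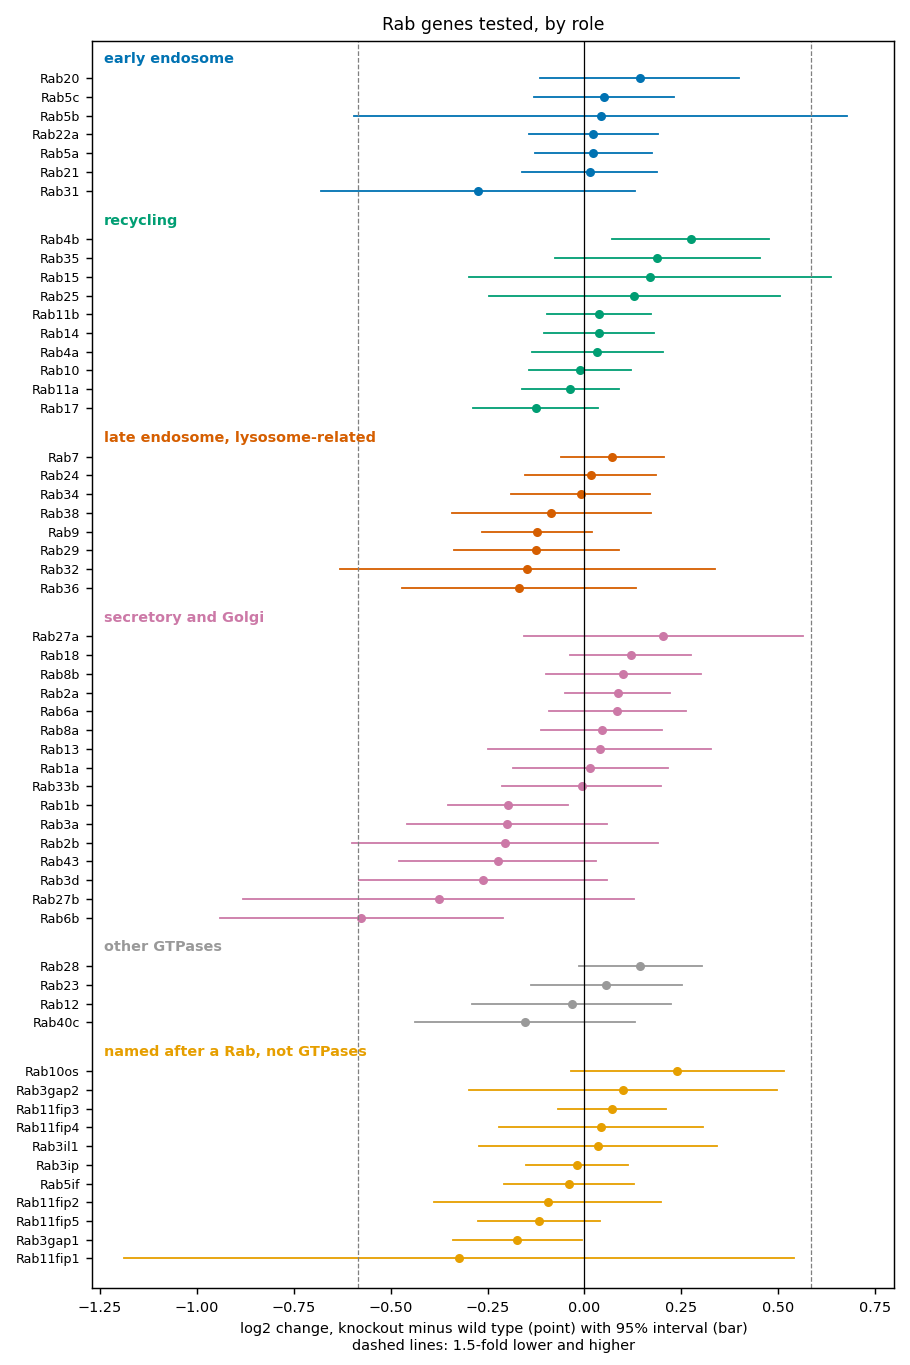
Log2 change of the 56 tested Rab genes (horizontal axis, knockout minus wild type; points) with 95% intervals from the limma fit (bars), grouped by role. Most intervals cross 0 and lie within the dashed lines at 1.5-fold, and those of Rab4b, Rab6b, Rab1b and Rab3gap1 do not reach 0.

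Early endosomal Rabs had log2 changes from −0.27 for Rab31 to 0.14 for Rab20, with the other 5 close to 0. All 7 on the array were tested, 0 passed the threshold, 6 had a log2 change above 0 and 1 below, and the median was 0.02. Rab5a, which drives the fusion of incoming vesicles with early endosomes, read 837, 937 and 862 in knockout and 909, 859 and 826 in wild type. The groups overlapped, and the log2 change was 0.02 with a 95% interval of −0.13 to 0.17. Rab5c, a close relative with the same role, read 444, 379 and 442 in knockout and 412, 389 and 419 in wild type, and its knockout array 2 was the lowest of all 6 (0.05, interval −0.13 to 0.23). Rab5b read 79.8, 116 and 199 in knockout and 135, 137 and 91.9 in wild type. Its lowest and its highest array are both knockout arrays, so its change was poorly determined, at 0.04 with an interval of −0.59 to 0.68.

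Rab21, an early endosomal GTPase of integrin traffic, read 604, 575 and 596 in knockout and 622, 619 and 524 in wild type, with a log2 change of 0.01 (interval −0.16 to 0.19). Wild type array 3 was lowest and the knockout arrays lay between the others. Rab22a, which acts between early and recycling endosomes, read 355, 356 and 361 in knockout and 375, 331 and 349.8 in wild type. Its knockout arrays agreed closely with each other and fell within the wild type range (0.02, interval −0.14 to 0.19). Rab20, found on endosomes and phagosomes, had a log2 change of 0.14, and Rab31, which acts between the trans-Golgi and endosomes, of −0.27 (limma adjusted p = 0.572 and 0.467).

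The recycling Rabs ranged from −0.13 for Rab17 to 0.27 for Rab4b. All 10 were tested, 0 passed, 7 were above 0 and 3 below, and the median was 0.04. Rab4b, of the fast route from early endosomes back to the surface, read 296, 261 and 261 in knockout and 229, 210.5 and 237 in wild type. Every knockout array lay above every wild type array, a difference of 0.27 on the log2 scale (SE 0.09, interval 0.07 to 0.48), or 1.21-fold. It did not pass adjustment over all genes (limma adjusted p = 0.121). The difference was 0.26 between the arrays of station 1 and 0.31 between the knockout and the wild type array of station 2. Its close relative Rab4a read 439, 419 and 384 in knockout and 398, 424 and 392 in wild type, with overlapping groups and a log2 change of 0.03 (interval −0.14 to 0.20).

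The slow recycling route is marked by Rab11. Rab11a read 1105, 1148 and 1114 in knockout and 1166, 1154 and 1133 in wild type. Knockout array 2 fell among the wild type arrays, and the log2 change was −0.04 (interval −0.16 to 0.09). Rab11b read 1098, 1125 and 1026 in knockout and 1055, 1052 and 1053 in wild type, with almost identical wild type arrays inside the knockout range (0.04, interval −0.10 to 0.17). Rab14, which links the trans-Golgi and endosomes, read 1455, 1500.2 and 1329 in knockout and 1412, 1375 and 1380.0 in wild type and had a log2 change of 0.04 (interval −0.10 to 0.18). Rab10, of basolateral and insulin-regulated traffic, was at −0.01. Rab17, which serves transcytosis in epithelia, was at −0.13, and Rab35, of recycling from the plasma membrane, at 0.19. Rab25, an epithelial member of the Rab11 group, was at 0.13, but at 0.40 on station 1 and −0.41 on station 2. Rab15 was at 0.17, where knockout array 3 read 182 and the other arrays 94.6 to 126.

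**Figure D2:**
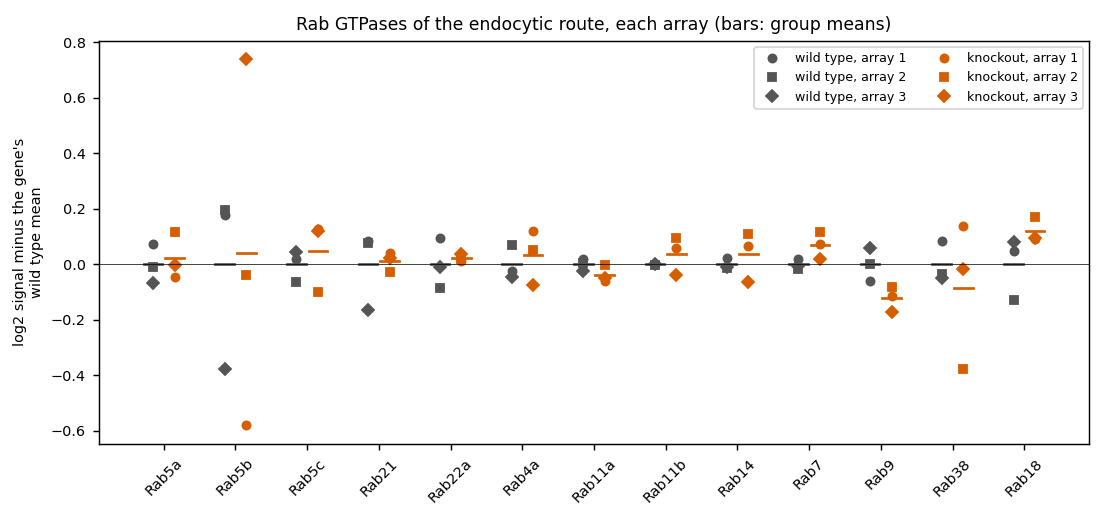
Log2 signal of 13 Rab GTPases, chosen for their known roles in or near the endocytic route, on each array, minus the wild type mean of the gene (vertical axis); grey, wild type; orange, knockout; marker shapes give the array number and bars the group means. The groups overlap except in Rab7, Rab9 and Rab18, and Rab5b scatters from array to array more than the others.

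Of the late endosomal and lysosome-related Rabs, 8 of 11 were tested and 0 passed. Their median log2 change was −0.10, with 2 above 0 and 6 below. Rab7, which directs late endosomes to fuse with lysosomes, read 2895, 2983 and 2787 in knockout and 2785, 2719.6 and 2740.0 in wild type. The groups did not overlap, but the step between the nearest arrays was small, and the log2 change was 0.07 (interval −0.06 to 0.20, limma adjusted p = 0.59). Rab9, which returns mannose 6-phosphate receptors from late endosomes to the Golgi, read 635, 649.9 and 612 in knockout and 659.7, 689 and 717 in wild type. Here every knockout array lay below every wild type array, with a log2 change of −0.12 (interval −0.26 to 0.02, limma adjusted p = 0.334). The fitted changes of Rab7 and Rab9 were thus of opposite sign, neither past the threshold.

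Rab38, a GTPase of lysosome-related organelles that is also made in the proximal tubule, read 614, 429 and 551 in knockout and 591, 544 and 539 in wild type. Knockout arrays 1 and 2 were the highest and the lowest of all 6, and the log2 change of −0.09 had an interval of −0.34 to 0.17. Its relative Rab32 was at −0.15 and Rab29, which acts at lysosomes and the trans-Golgi, at −0.12. Rab34 and Rab36, which position lysosomes, were at −0.01 and −0.17. Rab24, associated with autophagy, was at 0.02.

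The secretory and Golgi Rabs held the lowest member of the family, Rab6b. Of 25 on the array 16 were tested, 0 passed, 8 were above 0 and 8 below, and the median was 0.00. Rab6b, the Golgi GTPase isoform best known from neurons, read 124, 135 and 90.2 in knockout and 188, 180.2 and 148 in wild type. All knockout arrays lay below all wild type arrays, and the means were 117 ± 23.5 against 172 ± 21.4 (SD, n = 3). The log2 change of −0.58 (SE 0.16, interval −0.94 to −0.21), or 1.49-fold lower, had the smallest p of the family and missed the threshold (limma adjusted p = 0.0705). It was −0.36 between the arrays of station 1 and on station 2 knockout array 3 read 90.2 beside 180.2 on wild type array 2. Without knockout array 3 the log2 change was −0.40 (limma adjusted p = 0.141). Its widely expressed relative Rab6a was at 0.08 (interval −0.09 to 0.26).

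Rab1b, which works in transport from the endoplasmic reticulum to the Golgi, read 954, 1019.7 and 903 in knockout and 1030.2, 1145 and 1120.1 in wild type. The groups did not overlap, with a log2 change of −0.20 (SE 0.07, interval −0.35 to −0.04) and a limma adjusted p of 0.147. Rab1a, with the same role, was at 0.02 (interval −0.18 to 0.21). Rab18, which acts at the endoplasmic reticulum and on lipid droplets, read 1628, 1721 and 1634 in knockout and 1579.8, 1397 and 1618 in wild type. Its knockout arrays were all above the wild type ones, though knockout array 1 exceeded wild type array 3 only slightly (0.12, interval −0.04 to 0.28, limma adjusted p = 0.402).

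The other secretory members were spread around 0. Rab2a and Rab2b, of the Golgi, were at 0.09 and −0.21, and Rab33b and Rab43, also of the Golgi, at −0.01 and −0.22. Rab8a, Rab8b and Rab13, which carry cargo to the cell surface and junctions, were at 0.04, 0.10 and 0.04. Among the Rabs of regulated exocytosis, Rab27a was at 0.20, Rab27b at −0.38, Rab3a at −0.20 and Rab3d at −0.26. The Rab3a value rests on a probe set of the x_at class, whose probes can match other transcripts too. It read 925, 996 and 696 in knockout and 996, 935 and 1044 in wild type, while the other Rab3a probe set read 14.0 to 67.1 over the 6 arrays and was below the filter. The level of Rab3a transcript in these tubules is therefore uncertain.

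**Figure D3:**
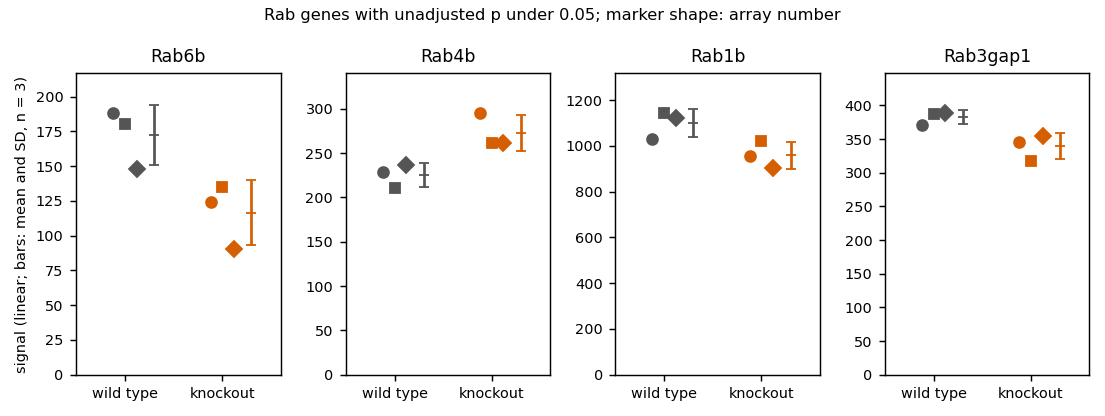
Linear signals (vertical axes, starting at 0) of the 4 Rab genes with an unadjusted limma p under 0.05, by group; marker shapes give the array number, and bars the mean and SD of 3 arrays. Rab6b, Rab1b and Rab3gap1 are lower and Rab4b is higher on every knockout array, and none passed adjustment over all genes.

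Rab GTPases outside these groups ranged from −0.15 for Rab40c to 0.14 for Rab28. Of 6 on the array 4 were tested and 0 passed. Rab28, linked to cilia and photoreceptors, read 358, 376 and 349 in knockout and 335, 325 and 319 in wild type. Its groups did not overlap, with a log2 change of 0.14 (interval −0.02 to 0.30, limma adjusted p = 0.312). Rab12, of transferrin receptor degradation, was at −0.03, Rab23, of cilia and Hedgehog signalling, at 0.06, and Rab40c, which joins a ubiquitin ligase, at −0.15.

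Of the 13 members that are not GTPases 11 were tested and 0 passed, with a median of −0.02. Rab3gap1, the catalytic subunit of the Rab3 GAP that also activates Rab18, read 346, 318 and 354 in knockout and 371, 387 and 389 in wild type. The knockout arrays were all lower (log2 change −0.17, interval −0.34 to −0.01, limma adjusted p = 0.233). Its partner Rab3gap2 was at 0.10. Rab3ip and Rab3il1, GEFs of Rab8 and Rab3 family members, were at −0.02 and 0.03. The Rab11 effectors Rab11fip2, Rab11fip3, Rab11fip4 and Rab11fip5 were at −0.10, 0.07, 0.04 and −0.12. The remaining one, Rab11fip1, read 40.0, 45.5 and 92.2 in knockout and 38.4, 87.7 and 97.8 in wild type. Low and high readings occurred in both groups, and its interval of −1.19 to 0.54 was the widest of the family. The antisense transcript Rab10os, with 116, 115 and 115 in knockout and 92.3, 103 and 98.5 in wild type, was higher on every knockout array (0.24, interval −0.03 to 0.51, limma adjusted p = 0.331). Rab10 was at −0.01 on its chosen probe set and at −0.03 and −0.25 on the others above the filter. Rab5if, which encodes a Rab5-interacting factor, was at −0.04.

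Other probe sets gave a second reading of many members. The 72 genes had 161 probe sets, of which 105 passed the filter, and 32 tested members had several of these. Of the 49 passing probe sets that were not chosen, 23 were above 0 and 26 below, and 30 had the sign of the chosen one. In a fit of all 22519 passing probe sets, 0 of the 49 had a limma adjusted p under 0.05 and 4 an unadjusted one, where 4.76% of all probe sets passed. The second Rab6b probe set above the filter read 68.1, 71.6 and 46.8 in knockout and 75.6, 81.3 and 78.7 in wild type. It too was lower on every knockout array, with a log2 change of −0.36. For Rab7 the second probe set was at −0.01, for Rab18 at −0.05 and for Rab38 at 0.01, all nearer to 0 than the chosen one or of opposite sign. Rab4b, Rab1b, Rab9 and Rab3gap1 had no other probe set above the filter.

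Rab23 showed the widest gap between its probe sets. The chosen one was at 0.06, whereas another read 64.2, 74.8 and 103 in knockout and 41.1, 41.6 and 50.5 in wild type. All its knockout arrays lay above all wild type ones, at a log2 change of 0.84 (limma adjusted p = 0.0617 over all passing probe sets). With the passing probe sets of each gene averaged, Rab23 was the only member called (limma adjusted p = 0.0433), so its call rests on how its probe sets are combined. Rab2b and Rab3d also had probe sets 0.5 or more apart, and both had probe sets of either sign. Rab3il1 had a second probe set at −0.40, which read 182, 159.9 and 213 in knockout and 212, 274 and 244 in wild type with overlapping groups. The second Rab11fip5 probe set was at −0.21, lower on every knockout array, beside −0.12 for the chosen one. The 4 probe sets of Rab22a ranged from −0.31 to 0.02, and the 6 of Rab14 from −0.05 to 0.19. For 7 tested members the chosen probe set is of the x_at or s_at class, which can share probes with other transcripts: Rab3a, Rab4a, Rab14, Rab27b, Rab38, Rab11fip5 and Rab3il1.

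**Figure D4:**
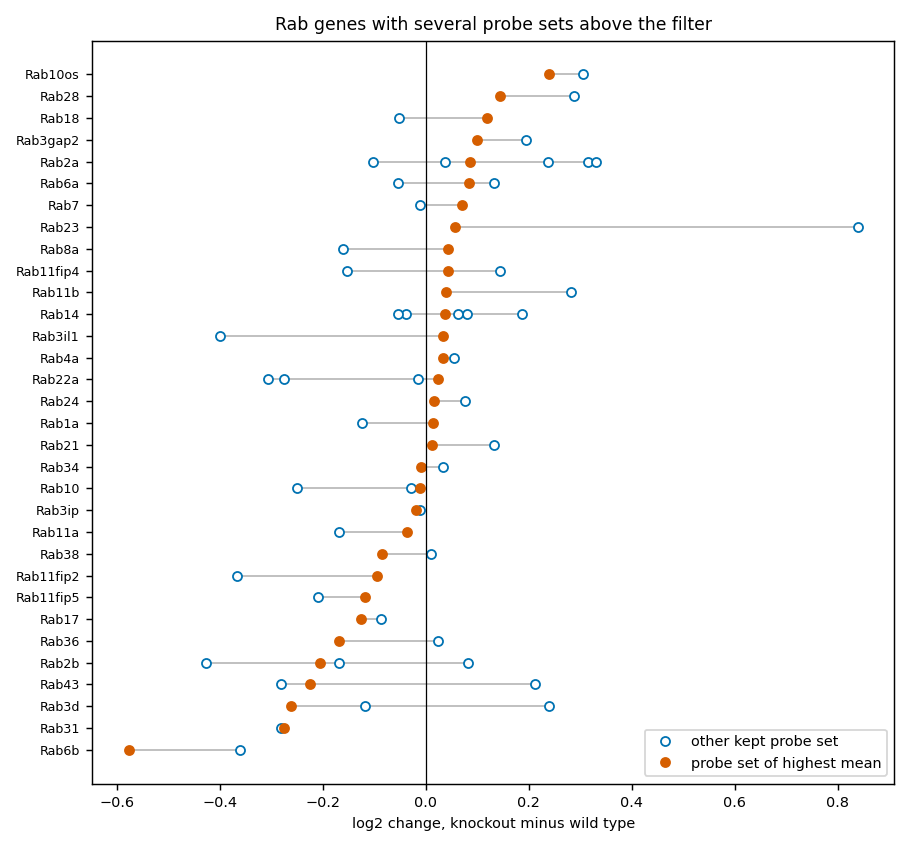
Log2 change (horizontal axis, knockout minus wild type) of every probe set above the filter for the 32 Rab genes with several; filled orange, the probe set of highest mean; open blue, the others. Most lie close to 0, both Rab6b probe sets are below 0, and 1 Rab23 probe set lies far from the other.

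Closely related Rabs were also compared as ratios within each array, which do not depend on how the arrays were scaled. Such a ratio sets 2 genes against each other, and a difference between groups does not tell which of them differs. The log2 ratio of Rab6b to Rab6a differed by −0.66 (knockout minus wild type), with an SD of 0.27 over the 3 knockout and 0.16 over the 3 wild type arrays. That of Rab4b to Rab4a differed by 0.24 (SD 0.07 and 0.15). In both pairs, and for Rab1b to Rab1a (−0.21) and Rab27b to Rab27a (−0.58), the groups did not overlap. The share of such ratios among other pairs of genes was not computed. Among single genes 25.2% did not overlap, and Rab6b, Rab4b and Rab1b were already of that kind. Nothing is read from the number of such pairs. The sizes of these differences depended on single arrays and settings. Without wild type array 2 the difference was −0.11 for Rab1b to Rab1a and 0.16 for Rab4b to Rab4a, and on station 1 alone it was −0.11 and 0.14. For Rab27b to Rab27a it was −0.34 with 50 added to every signal, and the Rab27b probe set is of the x_at class and read near the filter. In the other 6 of the 10 pairs the groups overlapped. The largest difference among these was −0.29, for Rab2b against Rab2a. The rest were −0.06 for Rab3d against Rab3a, 0.06 for Rab8b against Rab8a, and 0.07 for Rab11b against Rab11a. Against Rab5a the difference was 0.02 for Rab5b and 0.03 for Rab5c. With probe sets averaged, that of Rab11b to Rab11a was 0.26. Leaving out 1 array moved Rab5b to Rab5a between −0.34 (without knockout array 3) and 0.29 (without knockout array 1), and Rab5c to Rab5a between −0.046 (without knockout array 1) and 0.15 (without knockout array 2), so neither has a settled sign. The two-sided exact permutation p of each of the 4 pairs was 0.1, the smallest that 3 against 3 arrays allow, or 0.25 adjusted over the 10 pairs, so this design could not have reached 0.05.

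**Figure D5:**
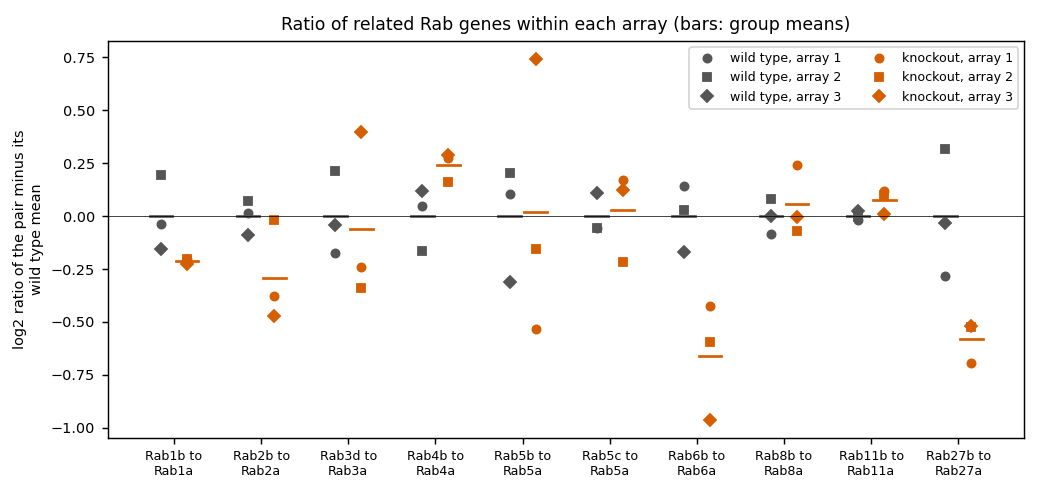
Log2 ratio of 10 pairs of related Rab genes within each array, minus the wild type mean of that ratio (vertical axis); grey, wild type; orange, knockout; marker shapes give the array number and bars the group means. The knockout ratios lie apart from the wild type ones for Rab6b to Rab6a, Rab1b to Rab1a, Rab4b to Rab4a and Rab27b to Rab27a. The share of such ratios among other pairs of genes was not computed.

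The 16 members that did not pass the filter were dim by their mean log2 signal. Their arrays read 2.27 to 57.0, and they could not be told from background without detection calls. They were 14 GTPases, 9 of them secretory (Rab3b, Rab3c, Rab19, Rab26, Rab30, Rab33a, Rab37, Rab39 and Rab39b), the late endosomal Rab7b, Rab9b and Rab42, with Rab40b and Rab44, and the antisense transcripts Rab26os and Rab11fip4os1. Many of the secretory ones are known from neurons, glands or blood cells. When genes of any brightness were fitted, 0 of the 16 had a limma adjusted p under 0.05 and 0 an unadjusted one, where 3.54% of all genes were called.

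The genes that load, switch and read the Rabs showed single changes. Of 155 genes listed outside the family for these roles, 130 were tested, 2 rose and 1 fell, or 2.31% against the 6.48% called among all tested genes. Their median log2 change was −0.03, against 0.01 over all. Vps8, a subunit of the CORVET complex that tethers Rab5-positive endosomes, rose 1.51-fold. It read 563, 493 and 500.1 in knockout and 366, 351 and 314 in wild type (log2 change 0.59, SE 0.08, limma adjusted p = 0.00157). Every knockout array lay well above every wild type array, and the other Vps8 probe set above the filter was at 0.92. The call held under all 18 other settings of the processing. On the same arrays, Rab5a, the partner of CORVET, was at 0.02.

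The other called genes were less firm. Hook1, a microtubule linker that works with early endosomes, fell 1.18-fold, with 642, 674 and 637 in knockout and 798, 777 and 736 in wild type (log2 change −0.24, limma adjusted p = 0.0491). Its call held in 6 of the 18 other settings and was lost when any of the arrays was left out (limma adjusted p up to 0.198). Sgsm1, a Rab GAP, rose 1.62-fold, with 109, 113 and 107 in knockout and 81.5, 65.5 and 57.8 in wild type (log2 change 0.70, limma adjusted p = 0.0297). Its call held in 10 of the 18 and was lost when any array other than wild type array 1 was left out (limma adjusted p up to 0.103), and with its probe sets averaged (0.182). Sgsm1's other probe set was at 0.19.

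The lists by step of the cycle are short, and nothing is read from their counts beside that 6.48%. Of 9 tested genes for prenylation and extraction, 0 passed. The lowest was Rabggta, of the enzyme that prenylates Rabs, with 475, 461 and 430.1 in knockout and 619.9, 496 and 566 in wild type (−0.30, limma adjusted p = 0.0822). Chm, whose product presents Rabs to that enzyme, was at −0.28 on 1 probe set and 0.64 on the other. Of 31 GEF genes, 0 passed, and the smallest p values belonged to Dennd6b (0.34, with its other probe set at −0.37) and Dennd1a (0.29). Of 31 GAP genes, Sgsm1 alone passed.

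Among the effectors of early endosomal Rabs, Vps8 and Hook1 were the 2 of 16 called. The median of this list was 0.13, beside 0.01 over all tested genes, and nothing particular to so short a list is read from either. Of 10 recycling effectors 0 passed, and Exoc6, an exocyst subunit that binds Rab11, was at −0.12, with its other probe sets at 0.04 and 0.05, beside Myo5b, the Rab11 motor, at 0.08. Of 19 late endosomal effectors 0 passed. Vps33a, a core subunit of the CORVET and HOPS tethers, was at −0.43, with 123, 109 and 111 in knockout and 156, 164 and 141 in wild type (limma adjusted p = 0.0619), and at −0.18 on its other probe set. Plin3, which binds Rab9, was at −0.25. Of 14 secretory effectors 0 passed, and Golga5, a Golgi tether, was at 0.16 and Sytl4, a Rab27 effector, at 0.56. The Sytl4 value was 0.35 without knockout array 3 and 0.28 with 50 added to every signal.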

How the data were processed

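The table holds signal intensities of 45101 probe sets per array, deposited by the authors. The submitters' processing notes name GCOS 1.4 and MAS5. No detection calls or genome build are given in the sources used here, so no coordinates are printed. RNA was extracted with Trizol and amplified from an oligo dT primer, per the labels' protocols, so the probes read mostly 3′ ends of transcripts. Leaving out control probes, 34945 of 45037 probe sets carry 1 symbol, 932 several and 9160 none. Genes were named from those with 1, and all 72 Rab identifiers were found in the RefSeq table.

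The log2 of each signal was taken, with nothing added. Probe sets with a mean log2 signal at or above the median (a signal of 41.9) were kept, 22519 in all, and the brightest of each gene was fitted. Knockout was compared with wild type by limma 3.58.1 (lmFit, eBayes with an intensity trend) in R 4.3.3, two-sided, adjusted over 11620 genes. Fold changes are ratios of geometric means. The number of arrays limits the precision, and the median SE was 0.09 for Rab genes and 0.12 for all. Other settings added 16 or 50 to every signal, changed the normalization, filter, probe set rule, trend or array weights, used station or replicate number as a block, took station 1 alone, or left out each array.

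Members, roles, lists and pairs were chosen with earlier results of these data known, and 3 genes that are no Rab effectors were taken out of the lists after values were seen. Members with values on every array are those past the threshold, those with an unadjusted p under 0.05 and no overlap, and 13 chosen for their endocytic role. Other members given in full were chosen after their values were seen. Outside the family, called genes or the 2 with the smallest p of a list are named.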

Additional observations from a re-analysis of the deposited data

How the results depend on the processing

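In 16 of the 18 other settings tried no Rab gene was called. The number higher was 1 with all kept probe sets of a gene averaged (Rab23). The number lower was 1 with the replicate block, which called Rab6b (limma adjusted p = 0.0217). Leaving out any array gave 0 and 0, and so did a fit of every kept probe set, chosen after seeing the data. Same-numbered arrays did not deviate together, with correlations across genes of 0.02, 0.03 and −0.03. Of 6 arrays 2 correlated best with their own number. With so few arrays this cannot exclude a pairing by number. The Rab median was −0.017 with station 1 arrays only and −0.014 to 0.015 leaving out 1 array. Over all genes, 199 were higher and 198 lower with arrays centred on their median, 217 and 241 with station 1 arrays only, and 236 higher without an intensity trend. Leaving out 1 array gave 245 to 343 higher and 250.0 to 395 lower.

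Some log2 changes turned sign, most of them close to 0. Averaged probe sets gave −0.14 for Rab22a, 0.18 for Chm and −0.013 for Dennd6b. Array weights gave −0.0095 for Rab21 and −0.11 for Rab5b. Station 1 alone gave −0.027 for Rab22a, −0.21 for Rab5b and −0.018 for Rab5c. Leaving out 1 array gave −0.068 to 0.056 for Rab21, −0.020 to 0.070 for Rab22a, −0.20 to 0.061 for Rab38, −0.010 to 0.086 for Rab4a, −0.025 to 0.059 for Rab5a and −0.31 to 0.35 for Rab5b. The log2 changes of Rab6b, Rab4b, Rab1b and Rab3gap1 were −0.69 to −0.36, 0.21 to 0.31, −0.24 to −0.12 and −0.20 to −0.13 over the 18 settings. These genes were picked for groups that did not overlap, so most settings could not turn their sign. Nothing is read from their kept direction. The causes of the shifts between settings were not tested. Only 21 of the 56 intervals lay inside a 1.2-fold change, so small changes could be missed in many members. The intervals of Rab5b and Rab11fip1 were the widest.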
